A study of Mus musculus with 8 samples.

Results

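The 9 genes described here encode precursors of neuropeptides that neurons of the cerebral cortex make: Crh, Npy, Penk, Pdyn, Tac1, Cck, Vip, Nts and Adcyap1. They were taken by gene symbol, and they are 9 of the 53392 genes in the files. Expression was compared between R342X mutants, which carry that change in the X-linked gene Phf6, and wild-type mice. Both groups were of the FVB/N background, and all 8 libraries, 4 per genotype, came from flash-frozen cortex at postnatal day 0. The labels name no sex, litter, zygosity or batch, and they do not say whether each library came from its own animal. If libraries share an animal, part of the spread behind each p-value is technical.

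Neuropeptides are made as longer precursors that enter the regulated secretory pathway. Convertases cut them at paired basic residues, exopeptidases trim the ends, and many are then amidated. The finished peptides are stored in dense-core granules and act on G protein-coupled receptors. In the mature cortex most of these peptides mark subtypes of GABAergic interneurons, while Cck and Adcyap1 are also made by excitatory neurons. Penk, Pdyn and Tac1 are also strongly expressed in the neighbouring striatum. Several of the genes are classic targets of the cAMP-responsive factor CREB, which binds the palindrome TGACGTCA or its shorter form TGACG.

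Mutant libraries held between 30469745 and 39453169 estimated reads, and wild-type libraries between 48841467 and 74266937, so every wild-type library was deeper. Phf6 was at 42.2 ± 1.93 CPM in mutants, against 79.0 ± 8.87 CPM in wild type (SD, n = 4 each). The cortical markers Emx1, Tbr1 and Neurod6 were present in all 8 libraries, with the lowest value at 35.1 TPM for Emx1 in mutants. The libraries stood apart in 2 sets on the first principal component, which held 35.3% of the variance. Set 1 was made up of mutant replicates 1, 2 and 3 with wild-type replicate 1, and set 2 of mutant replicate 4 with wild-type replicates 2, 3 and 4. The labels do not name the sets, and genotype and set are partly mixed. Differences within each set, and fits that hold the set as a term or leave a library out, are therefore given below where they move a result. Leaving out mutant replicate 4 leaves every mutant in set 1, with wild-type replicates 2, 3 and 4 in set 2. That fit mixes genotype with set more strongly, and its calls below do not separate the 2.

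One member is spliced in a way that changes what the precursor can yield, and its sequence is shown because the share of 1 splice form did not overlap between genotypes. As known from the rat gene, Tac1 encodes substance P in exon 3 and neurokinin A in exon 6, and exon 4 is skipped in a form named gamma-preprotachykinin. Exon 4 holds 45 bases at chr6:7557216-7557260 on the plus strand (GRCm38). In the lines that follow, exon 4 is in capitals and the flanking 20 bases of exons 3 and 5 are in lower case, with exons numbered and sequence read from the GENCODE M21 transcript of 7 exons.
Tac1 with exon 4: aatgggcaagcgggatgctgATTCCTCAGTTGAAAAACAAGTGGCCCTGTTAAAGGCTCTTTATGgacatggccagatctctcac
Tac1 without exon 4: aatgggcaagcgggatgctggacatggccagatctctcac

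Promoter sequence is shown for a feature that the choice of members did not use. Promoters of 7 members were found in the RefSeq table (GRCm38.p6), each running from 250 bases before to 50 after the start site. Crh and Penk had no entry there, so their promoters were not searched. The shorter CREB motif, searched as TGACG and as its reverse complement CGTCA, lay in promoters of 5 of these 7 genes, and it lay in 20.8% of all 32851 promoters in the table. The full palindrome TGACGTCA, which contains the shorter motif on both strands, lay in 0 of the 7 and in 1.79% of all promoters. TGACGTC or its reverse complement GACGTCA lay in 2 of the 7, Vip and Adcyap1, and in 3.21% of all promoters. The counts of members are per gene and the shares are per promoter. A gene can have more than 1 promoter, as Adcyap1 does, so the counts and shares are not in the same unit. A match of letters is a description and does not show that a factor binds there. Promoters follow RefSeq start sites, and for Tac1 the start of the GENCODE M21 transcript of 7 exons differs. The Tac1 site shown lies inside exon 1 of that transcript (chr6:7554879-7555161), after its start. The farther Tac1 site, with its motif at -197 from the RefSeq start, lies before the GENCODE start. The shorter motif is in capitals with 12 bases on each side, read 5′ to 3′ on the strand of the gene. All but the farther of the 2 Tac1 sites are shown.
Adcyap1 (chr17:93198914-93198942, plus strand): ggactaggatgcTGACGtcttttactgat
Vip (chr10:5639127-5639155, plus strand): ggatcactactgTGACGtctttcggggag
Cck (chr9:121495725-121495753, minus strand): cctgctggactgCGTCAgcactgggtaaa
Tac1 (chr6:7555006-7555034, plus strand): gctctacaggctCGTCAcgcctgagataa
Nts (chr10:102490568-102490596, minus strand): attagggaagatCGTCActttccatcaag

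Expression of the 9 genes spanned more than 2 orders of magnitude in newborn cortex. Npy, which encodes neuropeptide Y, an inhibitory peptide of interneurons, was the highest at 233 ± 8.85 TPM in mutants, against 236 ± 7.09 TPM in wild type (SD, n = 4 each). Cck, for cholecystokinin, followed at 135 ± 7.85 TPM in mutants, against 118 ± 13.3 TPM in wild type. Nts, for neurotensin, was at 74.8 ± 5.49 TPM in mutants, against 86.0 ± 5.79 TPM in wild type. These 3 genes ranked above 97.0%, 92.6% and 89.0% of the 20097 tested genes by wild-type TPM.

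**Figure D1:**
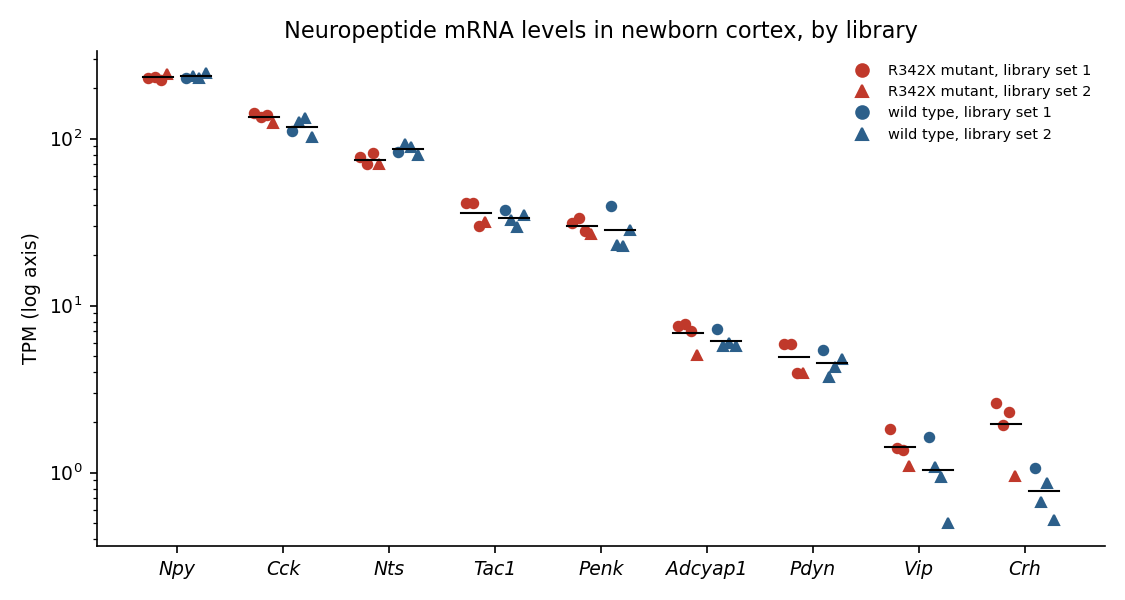
TPM of each neuropeptide gene on a log axis, with genes ordered by their wild-type mean, mutants left of wild type, 1 point per library (circles set 1, triangles set 2) and a bar at each mean. Npy is highest at 233 TPM in mutants, against 236 TPM in wild type, and Vip and Crh are lowest.

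Tac1 and Penk, which encodes the enkephalins, were next and could not be ordered. Tac1 was at 36.0 ± 5.98 TPM in mutants, against 33.6 ± 3.38 TPM in wild type, and Penk at 29.8 ± 3.10 TPM in mutants, against 28.3 ± 7.96 TPM in wild type. Their ranges overlapped in both genotypes. Adcyap1, for the peptide PACAP, was at 6.85 ± 1.22 TPM in mutants, against 6.17 ± 0.73 TPM in wild type. Pdyn, for the dynorphins, was at 4.92 ± 1.15 TPM in mutants, against 4.56 ± 0.71 TPM in wild type. Adcyap1 was above Pdyn in 8 of 8 libraries, yet the ranges over mutants overlapped.

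Vip, for vasoactive intestinal peptide, and Crh, for corticotropin-releasing hormone, closed the order. Vip was at 1.42 ± 0.30 TPM in mutants, against 1.04 ± 0.47 TPM in wild type. Crh was at 1.94 ± 0.72 TPM in mutants, against 0.78 ± 0.23 TPM in wild type. Vip was above Crh in 4 of 8 libraries, and these 4 were not tested for their grouping. Crh rests on 19 to 58 reads per library and Vip on 30.2 to 63.5, so counting alone gives an error of up to 22.9% for Crh in 1 library. For Npy, with at least 1391 reads, it is at most 2.68%. The summed level of the 9 genes ran from 508 to 542 TPM in mutants and from 503 to 522 TPM in wild type, and Npy made up 44.6% of it in mutants and 46.0% in wild type. In bulk tissue, fewer cells of a type and less RNA per cell cannot be told apart, and this holds for each difference below.

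No neuropeptide gene passed the test between genotypes. All 9 passed the filter on low counts, 0 were called at an adjusted p under 0.05 (edgeR quasi-likelihood test, Benjamini-Hochberg over 20097 genes), and the test called 4 genes in all, 0.0199% of those tested. At an unadjusted p under 0.05 there were 2 of the 9, Crh and Nts, against 2758 genes or 13.7% of all tested. The 1 higher in mutants, Crh, stood against 6.89% of all genes, and the 1 lower, Nts, against 6.84%. DESeq2's Wald test called 1 of the 9, Crh, with 2.0% of all genes called. The log2 fold change was above 0 for 6 members and below 0 for 3, with a median of 0.08 over the members and 0.00 over all genes tested. With the library set as a term 4 members were above 0 and 5 below, with a median of -0.08. CPM did not separate the genotypes without overlap for any of the 9, and it did so for 6.15% of all tested genes (2.95% higher in mutants and 3.2% lower). TPM also separated none of the 9, against 5.73% of all genes.

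**Figure D2:**
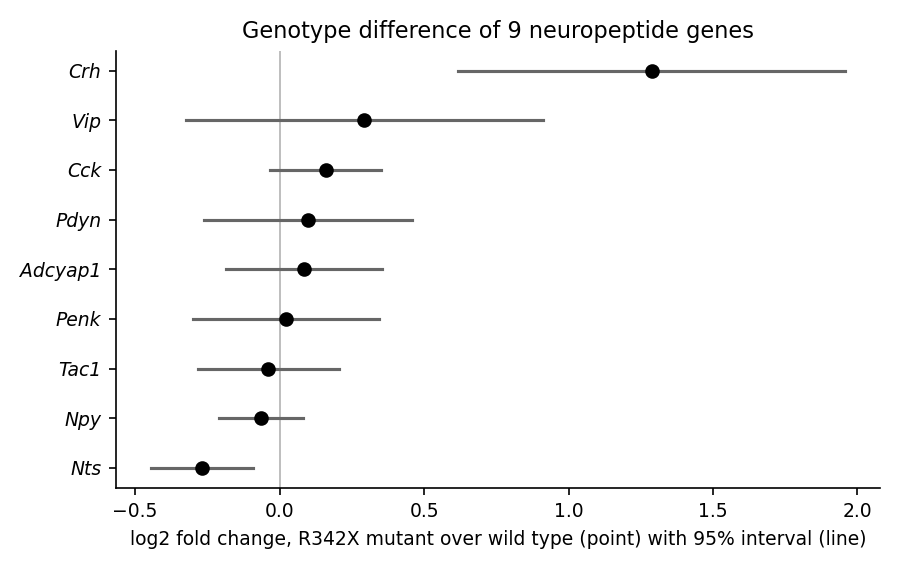
Log2 fold change of each neuropeptide gene, mutant over wild type, from the edgeR fit over all genes, with its 95% interval as a line. The interval lies above 0 for Crh (0.62 to 1.96) and below 0 for Nts (-0.45 to -0.09), and holds 0 for the other 7 genes.

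The fits that called 0 of the 9 called 0.0249% of genes with DESeq2's size factors in edgeR, 0.0199% with limma-voom, 0.0358% with no filter, 0.0416% with the stricter filter, 0.0149% with log2(TPM + 1), 0.0995% with a replicate block and 0.602% with the library set as a term. Leaving out mutant replicates 1, 2 and 3 in turn called 0 members and 0.0288%, 0.0144% and 0.0192% of genes, and leaving out mutant replicate 4 called 1 member and 3.37%. Leaving out wild-type replicates 1 to 4 called 0 members and 0.07%, 0.02%, 0.02% and 0.0251% of genes.

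Crh had the largest difference of the 9. It lies on chromosome 3 (GRCm38, 19693401 to 19695396, minus strand) and is best known as the hypothalamic releaser of the stress axis, while in cortex it is made by interneurons. Crh was at 1.455, 1.076, 1.351 and 0.561 CPM in mutant replicates 1 to 4, against 0.593, 0.405, 0.517 and 0.323 CPM in wild-type replicates 1 to 4. Mutant replicates 1, 2 and 3 were each above every wild-type library, and mutant replicate 4 lay just under the highest wild-type library. The fold change was 2.44, or 1.29 ± 0.30 on the log2 scale (SE; 95% interval 0.62 to 1.96; edgeR adjusted p = 0.187, unadjusted p = 0.00152), which ranked 162 by p. Permuting genotype over all 70 assignments of the 8 libraries (exact, two-sided, on log2 CPM) gave p = 0.0571, where 0.0286 is the smallest possible.

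Crh was higher in mutants within both library sets. Within set 1 the log2 difference was 1.06, and within set 2 it was 0.42, with wild type a single library in set 1 and mutants a single library in set 2. Adding the library set to the model gave a log2 fold change of 0.82 (adjusted p = 0.187). Without mutant replicate 4, Crh passed the test at 1.51 (adjusted p = 0.0230). In that fit every mutant library is of set 1, so the fit does not separate genotype from set. DESeq2 gave 1.28 (adjusted p = 0.0143).

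Nts was the member lower in mutants with the smallest p. Neurotensin is a peptide that modulates dopamine signalling, and Nts lies on chromosome 10 (102481756 to 102490486, minus strand). Mutant replicates 1 to 4 held Nts at 41.8, 38.1, 45.7 and 39.8 CPM, against 44.1, 55.8, 50.5 and 48.8 CPM in wild-type replicates 1 to 4. Overlap was limited to 1 library on each side, since mutant replicate 3 was above wild-type replicate 1. Mutants held 0.83 of the wild-type level, a log2 fold change of -0.27 ± 0.08 (SE; 95% interval -0.45 to -0.09; edgeR adjusted p = 0.246, unadjusted p = 0.00683). The exact permutation gave p = 0.0571. In log2 CPM, mutants and wild type differed by -0.08 within set 1 and by -0.38 within set 2, and the fitted value was -0.22 with the set as a term (adjusted p = 0.232).

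**Figure D3:**
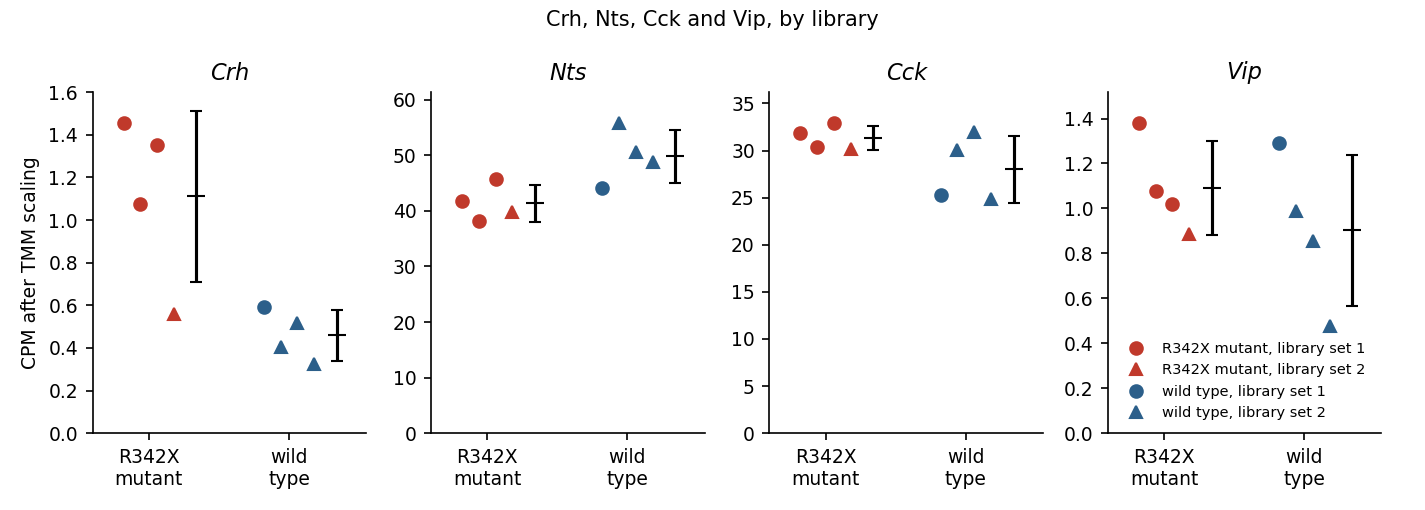
CPM of Crh, Nts, Cck and Vip in each library, mutants left of wild type, with circles for set 1, triangles for set 2, and the mean with its SD (n = 4) beside the points. For Crh, 3 of the 4 mutant libraries lie above all wild-type libraries, and mutant replicate 4, at 0.561 CPM, lies among them.

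Cck and Npy, the most abundant members, did not pass the test. Cck (chromosome 9, 121489824 to 121495694, minus strand) was at 31.9, 30.3, 32.9 and 30.2 CPM in mutants, against 25.3, 30.1, 32.0 and 24.8 CPM in wild type, with wild-type replicate 3 inside the range of mutants and wild-type replicate 2 just under it. Its log2 fold change was 0.16 ± 0.09 (95% interval -0.03 to 0.35; edgeR adjusted p = 0.424). Npy (chromosome 6, 49822710 to 49829507, plus strand) was at 44.5, 45.3, 46.1 and 50.5 CPM in mutants, against 44.1, 50.2, 48.1 and 52.5 CPM in wild type. In both genotypes the set 2 libraries were the higher ones for Npy. The log2 fold change of Npy was -0.07 ± 0.07 (95% interval -0.21 to 0.08), the narrowest interval of the 9.

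The opioid precursors did not separate the genotypes. Penk (chromosome 4, 4133531 to 4138819, minus strand) was at 16.0, 16.8, 14.8 and 13.9 CPM in mutants, against 19.9, 13.0, 12.03 and 15.8 CPM in wild type. Wild-type replicate 1 was the highest of all 8 libraries and wild-type replicate 3 the lowest, so the mutants lay within the wild-type range. The log2 fold change was 0.02 ± 0.15 (95% interval -0.30 to 0.34), and it was -0.16 with the library set as a term. Pdyn (chromosome 2, 129686565 to 129699844, minus strand) ran from 4.43 to 6.92 CPM in mutants and from 4.75 to 6.09 CPM in wild type, with a log2 fold change of 0.10 ± 0.16 (95% interval -0.26 to 0.46) and -0.08 with the set as a term.

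Vip and Adcyap1 belong to 1 family of related peptides and share receptors. Vip (chromosome 10, 5639218 to 5647617, plus strand) was at 1.38, 1.076, 1.02 and 0.885 CPM in mutants, against 1.289, 0.988, 0.856 and 0.477 CPM in wild type. The 2 highest libraries were mutant replicate 1 and wild-type replicate 1, both of set 1. Its log2 fold change was 0.29 ± 0.28 (95% interval -0.33 to 0.91), and 0.00 with the set as a term (edgeR adjusted p = 0.998). Adcyap1 (chromosome 17, 93199017 to 93206537, plus strand) ran from 5.28 to 7.63 CPM in mutants and from 6.27 to 7.14 CPM in wild type, with mutant replicate 4 the lowest of the 8. Its log2 fold change was 0.08 ± 0.12 (95% interval -0.19 to 0.36), and -0.09 with the set as a term. Over the 9 genes, mutant replicate 4 was the lowest mutant library for 6, and wild-type replicate 1 the highest wild-type library for 4.

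The total of Tac1 did not differ detectably, while the share of its splice forms without exon 4 did not overlap. Tac1 as a whole (chromosome 6, 7554879 to 7565834, plus strand) had a log2 fold change of -0.04 ± 0.11 (95% interval -0.28 to 0.21; edgeR adjusted p = 0.884). Among transcripts that span exon 4, those without it made up 48.2%, 46.6%, 46.9% and 48.2% of TPM in mutant replicates 1 to 4, against 46.4%, 41.3%, 39.5% and 34.3% in wild-type replicates 1 to 4. Every mutant library was above every wild-type library, although wild-type replicate 1 lay just under the lowest mutant. In set 2 the mutant library was at 48.2%, against 34.3% to 41.3% in wild type. The means were 47.5% ± 0.83 in mutants and 40.4% ± 4.997 in wild type (SD, n = 4 each). The transcript that lacks exon 6, and so neurokinin A, was at 0.81 ± 0.69 TPM in mutants, against 0.39 ± 0.20 TPM in wild type. These shares are model estimates from 134.6 to 225.0 reads per library for the forms without exon 4, and the annotated form without it is also shorter at both ends. The shares were not tested.

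Vip showed the other difference in transcript makeup. Its annotated transcript with a retained intron keeps the 1734 bases after exon 2 (chr10:5640735-5642468, plus strand). That transcript held 11.5%, 13.6%, 5.89% and 15.6% of Vip TPM in mutant replicates 1 to 4, against 17.7%, 24.7%, 31.1% and 27.2% in wild-type replicates 1 to 4. All mutant libraries were below all wild-type libraries, also within each library set, on 3.68 to 10.4 reads in mutants and 12.3 to 28.1 in wild type. Reads on retained-intron transcripts of all genes made up 3.67% to 4.16% in mutants and 3.87% to 4.22% in wild type, and their part in the Vip share was not tested. Among 5926 retained-intron transcripts of all genes, 3.41% had a share that did not overlap between genotypes, and 2.23% were lower in mutants in this way. Of 9 member transcripts with at least 20 reads on average and a share between 5% and 95%, 2 did not overlap between genotypes, the Tac1 form without exon 4 and the spliced Vip transcript, against 3.42% of 31063 such transcripts over all tested genes. The Tac1 form and the spliced Vip transcript were both singled out after their values were seen. The Vip transcript with the retained intron averaged fewer than 20 reads, so it is not itself among the 9. The 2 Penk transcripts and the 3 main Cck transcripts overlapped, with the Penk form of larger share at 55.6% ± 1.95 in mutants and 55.9% ± 2.59 in wild type.

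**Figure D4:**
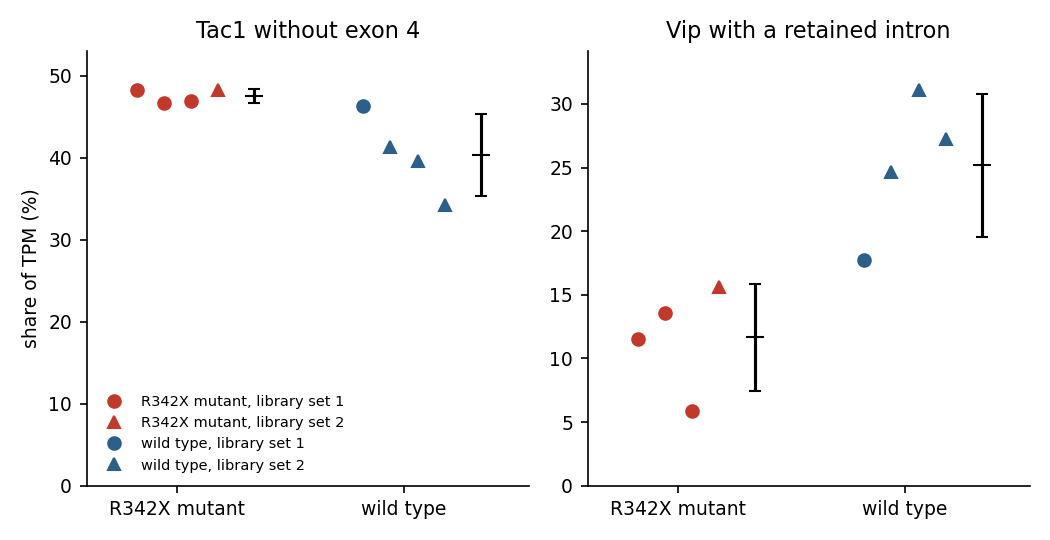
Share of TPM per library, mutants left of wild type, for Tac1 forms without exon 4 (left, among transcripts that span it) and for the Vip transcript with a retained intron (right), with the mean and SD (n = 4) beside the points. The Tac1 share averages 47.5% in mutants and 40.4% in wild type, and the Vip share 11.7% in mutants and 25.2% in wild type.

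Receptors of the 9 peptides were mostly above 0 in fold change, and none passed the test. Of 18 receptor genes 17 were tested, 16 had a log2 fold change above 0 and 1 below, and 0 were called. At an unadjusted p under 0.05 there were 3 of the 17, all higher, against 13.7% of all genes (6.89% higher and 6.84% lower). This share also stands beside the same count in each list below. The median of the receptors was 0.29, against 0.00 over all genes, and it was 0.06 with the library set as a term, with 14 of 17 above 0. Cckbr, the main brain receptor of cholecystokinin, had the smallest p of them (2.46 ± 0.55 TPM in mutants, against 1.35 ± 0.49 TPM in wild type; log2 fold change 0.81 ± 0.24; adjusted p = 0.244). Crhr1, the high-affinity receptor of Crh, was at 9.26 TPM in mutants, against 7.02 TPM in wild type on average (log2 fold change 0.35 ± 0.17). Ntsr1, the high-affinity neurotensin receptor, was at 27.4 TPM in mutants, against 23.4 TPM in wild type (0.17 ± 0.08). For the 3 Npy receptors Npy1r, Npy2r and Npy5r the log2 fold changes were 0.45 ± 0.22, 0.88 ± 0.37 and 0.70 ± 0.32. Adcyap1r1, the PACAP receptor, was the most abundant receptor of the list, at 67.1 TPM in mutants, against 64.5 TPM in wild type, with a log2 fold change of 0.00 ± 0.05. Vipr1 was the gene below 0, at -0.50 ± 0.25. The opioid receptors Oprd1, Oprm1 and Oprk1 were each under 1 TPM in both genotypes on average. DESeq2 called Cckbr, and without mutant replicate 4 edgeR called Cckbr and Npy2r as higher and Vipr1 as lower. Of all genes, DESeq2 called 2.0% and the fit without mutant replicate 4 called 3.37%. These shares also stand beside the calls of these fits in each list below.

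The machinery that makes and stores peptides had 0 called genes of 15 tested. Of these, 12 were above 0 and 3 below, with a median log2 fold change of 0.12 that was 0.13 with the library set as a term. At an unadjusted p under 0.05 there were 7 of the 15, all 7 higher. Over all genes, 13.7% were under that threshold and 6.89% were so and higher. Pcsk1n, which encodes proSAAS, an inhibitor of the convertase Pcsk1, had the smallest p, at 158 ± 10.9 TPM in mutants, against 128 ± 4.505 TPM in wild type (log2 fold change 0.25 ± 0.05; edgeR adjusted p = 0.175), with no overlap in CPM. The convertases Pcsk1 and Pcsk2 had log2 fold changes of 0.39 ± 0.16 and 0.30 ± 0.11. Cpe, the trimming carboxypeptidase, was the most abundant of the list at 644 TPM in mutants, against 576 TPM in wild type (0.09 ± 0.05). Pam, the amidating enzyme, stood at -0.01 ± 0.04. Among 11 genes for peptide binding and degradation 0 were called, 6 were above 0, 3 had an unadjusted p under 0.05 (2 higher and 1 lower), and the smallest p was that of Thop1, a peptidase that cleaves neurotensin (0.24 ± 0.07; adjusted p = 0.247). Crhbp, the secreted binding protein of Crh, had a log2 fold change of 0.14 ± 0.13. DESeq2 called Pcsk1n and Ptprn, a granule membrane protein. Without mutant replicate 4, 4 processing genes were called, all higher (Cadps2, Ptprn, Pcsk1n and Scg2), and 3 of binding and degradation, 1 of them higher.

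**Figure D5:**
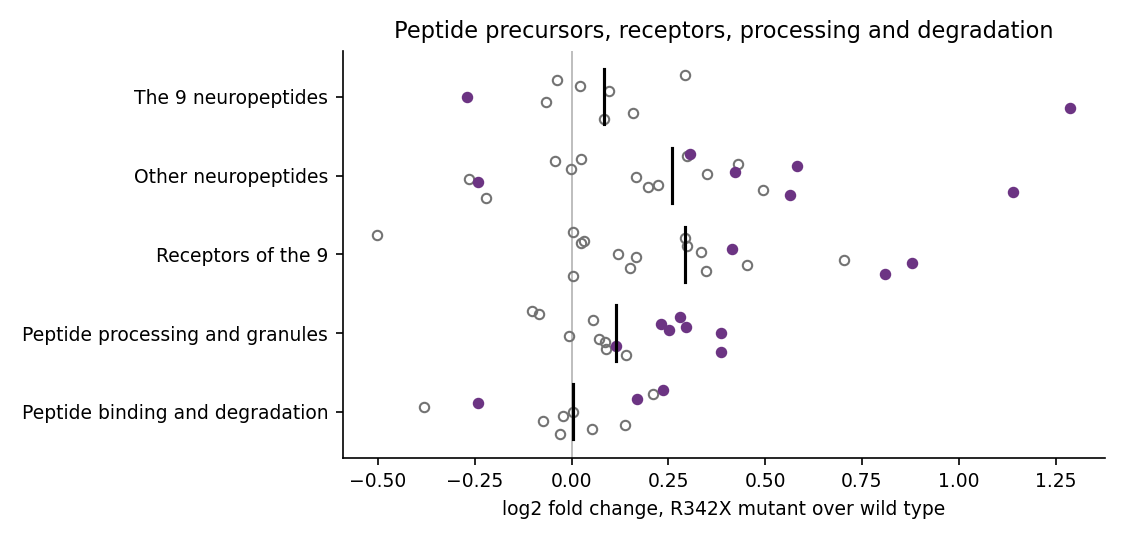
Log2 fold change, mutant over wild type, of each tested gene in 5 groups, with filled points for an unadjusted p under 0.05, open points for the rest, and a bar at the median of each group. The medians run from 0.00 for binding and degradation to 0.29 for receptors, and 0 genes pass adjustment over all genes.

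Other neuropeptide genes also had 0 calls. Of 29 such genes 18 were tested, 0 were called, and 13 were above 0 and 5 below. At an unadjusted p under 0.05 there were 6 of the 18 (5 higher and 1 lower), against 13.7% of all genes. The median log2 fold change of the 18 was 0.26, or 0.18 with the library set as a term. Vgf, an activity-dependent granule precursor, had the smallest p, at 39.2 ± 2.14 TPM in mutants, against 30.6 ± 1.53 TPM in wild type (0.31 ± 0.06; edgeR adjusted p = 0.160), with no overlap in CPM. Sst, the somatostatin precursor of a major interneuron class, was at 229 TPM in mutants, against 228 TPM in wild type on average (-0.04 ± 0.08). DESeq2, and edgeR without mutant replicate 4, called Vgf and Pnoc, the precursor of nociceptin, as higher.

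Markers of the cells and regions that make these peptides overlapped in sum between genotypes, with those of excitatory neurons as the exception. Of 22 interneuron genes 0 were called and 10 were above 0 (median -0.01). At an unadjusted p under 0.05 there were 5 of the 22 (2 higher and 3 lower), against 13.7% of all genes. The summed level of the 22 ran from 1234 to 1318 CPM in mutants and from 1241 to 1299 CPM in wild type. Gad2, a GABA-synthesizing enzyme, had the smallest p of them (53.8 ± 5.33 CPM in mutants, against 69.97 ± 8.26 CPM in wild type; -0.38 ± 0.09; edgeR adjusted p = 0.189). Gad2 was called by DESeq2, with the replicate block and without mutant replicate 4. The 15 excitatory genes summed to between 2263 and 2353 CPM in mutants and between 2372 and 2446 CPM in wild type, so every mutant sum lay below every wild-type sum. The sums were not tested, and of single genes 3.2% of all tested were lower in mutants without overlap in CPM. Of these 15 genes 7 were above 0 and 8 below (median 0.00), 0 were called, and 5 had an unadjusted p under 0.05 (3 higher and 2 lower). The smallest p was that of Camk2a, whose fold change was above 0 (0.25 ± 0.05; edgeR adjusted p = 0.159). Neurod2 (347.8 CPM in mutants, against 431.2 CPM in wild type) and Neurod6 (336.9 CPM in mutants, against 404.8 CPM in wild type) were among the genes with a fold change below 0. DESeq2 called 2 genes as higher and 1 as lower (Camk2a, Slc17a7 and Neurod6), the fit without mutant replicate 4 also called 2 as higher and 1 as lower (Camk2a, Slc17a7 and Neurod2), and the fit with the set as a term called Neurod6 as lower. Cajal-Retzius genes were below 0 for 7 of 7 (median -0.16), although 3 of 7 were above 0 with log2(TPM + 1) and 1 of 7 with the library set as a term, and Nhlh2 had the smallest p (-0.36 ± 0.10; adjusted p = 0.232) and was called as lower by DESeq2. Of the 7, 0 were called by edgeR and 1 had an unadjusted p under 0.05. None of these lists had a marker at 0 reads in every library, and their part in the peptide levels was not tested.

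Striatal genes, among them Drd1, Drd2 and Ppp1r1b, summed to between 244 and 272 CPM in mutants and between 219 and 283 CPM in wild type. The highest sum was in wild-type replicate 1 and the lowest in wild-type replicate 3, the same 2 libraries that were highest and lowest for Penk. Tac1 and Pdyn did not share these libraries. Tac1 was highest in wild-type replicate 4 and lowest in mutant replicate 3. Pdyn was highest in mutant replicate 1 and lowest in mutant replicate 4. Of 13 striatal genes 9 were above 0 (median 0.11), and 0 were called or had an unadjusted p under 0.05, and with the library set as a term 2 of 13 were above 0. Ppp1r1b had the smallest p (-0.12 ± 0.07; edgeR adjusted p = 0.465). For hippocampus and amygdala the sums were 269 to 315 CPM in mutants and 239 to 334 CPM in wild type, again highest in wild-type replicate 1. Of 6 tested genes 4 were above 0, and 0 were called or had an unadjusted p under 0.05. Lhx9 had the smallest p (0.21 ± 0.13). Markers of thalamus and hypothalamus summed to between 30.4 and 39.5 CPM in mutants and between 31.6 and 40.0 CPM in wild type, with Hmx2 at 0 in every library. Of 7 tested genes 4 were above 0, and 0 were called or had an unadjusted p under 0.05. Nkx2-1 had the smallest p (0.10 ± 0.14). Choroid plexus genes ranged from 553 to 819 CPM in mutants and from 523 to 705 CPM in wild type (Kl 0.33 ± 0.15), and meningeal genes from 339 to 523 CPM in mutants and from 316 to 417 CPM in wild type (Aldh1a2 0.29 ± 0.12). Both were highest in mutant replicate 4, and with the library set as a term Aldh1a2 was called as higher. Of 7 choroid plexus genes 7 were above 0 (median 0.14). Of 7 meningeal genes 6 were (median 0.14), with Lum below 0 (-0.29 ± 0.17). Without mutant replicate 4, 3 choroid plexus genes and 4 meningeal genes were above 0. In each list 0 were called, and 1 had an unadjusted p under 0.05 and was higher, against 6.89% of all genes. The part of these tissues in the peptide levels was not tested.

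Genes of 3 signals that act on peptide genes were set beside them. For each of the 3, the share of all genes with an unadjusted p under 0.05 was 13.7% (6.89% higher and 6.84% lower). The immediate early genes are transcribed soon after neurons fire. Of 16 such genes 15 were above 0, 0 were called and 7, all higher, had an unadjusted p under 0.05. The median log2 fold change of the 16 was 0.30, or 0.15 with the library set as a term. Fos had the smallest p (4.75 ± 0.82 CPM in mutants, against 3.397 ± 0.24 CPM in wild type; 0.49 ± 0.13; edgeR adjusted p = 0.232). DESeq2 called Fos as higher, and the fit without mutant replicate 4 called Fos and Egr3 as higher. Of 10 genes of the CREB pathway 4 were above 0, 0 were called and 2 had an unadjusted p under 0.05 (1 higher and 1 lower). The median of the 10 was -0.07. Crtc3 (-0.19 ± 0.08) was called as lower without mutant replicate 4. Of 8 glucocorticoid response genes 6 were above 0, 0 were called and 4, all higher, had an unadjusted p under 0.05 (median 0.15). Klf9 had the smallest p (0.27 ± 0.08; adjusted p = 0.230). The summed level of the 8 genes did not overlap, at 266 to 284 CPM in mutants and 252 to 261 CPM in wild type. The sum of the excitatory genes also did not overlap, in the other direction, and these sums were not tested. Of single genes, 2.95% of all tested were higher in mutants without overlap in CPM. DESeq2 called Tsc22d3 and Klf9 as higher, and the fit without mutant replicate 4 called Tsc22d3.

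The genes whose pattern over the 8 libraries was most like that of Crh were Nmbr, a receptor for neuromedin B, Pla2g3, a secreted phospholipase, and Dbx2, a homeobox factor. Their root mean square difference from Crh in centred log2 CPM was 0.19, 0.22 and 0.23, where Crh itself had an SD of 0.77 over the libraries and 1240 genes were compared. Most like Nts were Myl6b, a myosin light chain gene, at 0.05, Adamts19, a metalloprotease gene, at 0.06, and Ccdc84 at 0.08, with an SD of 0.19 for Nts and 10577 genes compared. These likenesses describe 8 libraries and were not tested.

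The authors' deposited table lists all 9 genes, and its log2 fold changes for Crh and Nts lie closer to 0 than the ones above. These deposited folds may not be on the same scale as the edgeR folds, as described under the processing below. In the authors' deposited table Crh has a log2 fold change of 0.01 with an unadjusted p of 0.0252 and no adjusted p. For 4 members the sign there differs from the one above: the authors' deposited table gives 0.0026 for Npy, -0.021 for Penk, -0.0068 for Pdyn and -0.011 for Adcyap1, each with an SE larger than the value. For Nts the authors' deposited table gives -0.11 with an adjusted p of 0.181, and 0 of the 7 members with an adjusted p there are under 0.05, compared with 417 of its 14991 genes with one.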

How the data were processed

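mRNA libraries of newborn cortex, 8 in all, were analysed from the authors' deposited files. Per the file headers, each library file gives an estimated read count (expected count) and a TPM value per transcript. Per the submitters' processing notes, Salmon 0.12.0, DESeq2 and the GRCm38 build were used, but their options are not given in these sources. Per its file header, the authors' deposited comparison table holds normalized signal averaged over libraries. It also holds a log2 fold change, an SE, a p-value and an adjusted value, all as deposited by the authors. Whether its folds were shrunk is not given. In the authors' deposited table the folds of Crh and Nts are smaller in size than their SE (0.05 and 0.122). The authors' unadjusted p is nevertheless 0.0252 for Crh and 0.012 for Nts. The fold over its SE therefore does not yield that p-value, and the deposited folds may not be on the scale of the edgeR folds.

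Estimated counts and TPM were summed per gene, and counts were rounded. Of 136202 transcripts, 134907 (99.0%) matched GENCODE M21. Adcyap1 matched by gene identifier only, since its version differs. The comparison of genotypes used the quasi-likelihood F test of edgeR 4.0.16 (R 4.3.3, two-sided, default filter on low counts, TMM scaling, no term but genotype), with Benjamini-Hochberg adjustment over all 20097 tested genes and a threshold of 0.05. Standard errors come from the fold and its F statistic. Log2 CPM used a prior count of 2. Alternatives used DESeq2 1.42.0, limma 3.58.1 with voom or with log2(TPM + 1), other filters (5 CPM in at least 4 libraries, or none), a replicate block, the library set as a term, and each library left out. The fit was tested on simulated counts.

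The 9 members and the 15 further lists (197 genes, all in the files) were chosen with earlier results of these data known. Of each list, called genes, or otherwise the gene with the smallest p, were named. Other list genes, such as further receptors and enzymes, were named after their values were seen. Genes most alike were the 3 protein-coding genes with the smallest root mean square difference for each member with an unadjusted p under 0.05, among genes with at least 0.5 of its SD.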

Additional observations from a re-analysis of the deposited data

Results flagged for a closer look

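Adcyap1 in wild type was singled out because 1 library stood far from the other 3. Wild-type replicate 1 was at 7.26 TPM (7.14 CPM), while the other wild-type libraries ran from 5.73 to 5.96 TPM. Wild-type replicate 1 is also the 1 wild-type library of set 1, so the gap runs along the split of the library sets, whose part in it was not tested. The gap to the next library was 0.848 of the range in TPM and 0.907 in CPM, above Dixon's 95% limit for 4 libraries. It was the only group flagged of the 18 groups checked, 9 genes in 2 genotypes, and chance flags about 1 group in 20.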

How the results depend on the processing

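No neuropeptide gene was called in the fit on genotype, and 1, Crh, was called by DESeq2's Wald test and without mutant replicate 4 (0 to 1 over the fits that leave 1 library out). Of all genes, 4 were called, against 401 with DESeq2, 13 with no filter, 20 with the replicate block, 121 with the library set as a term, and 3 to 699 with 1 library left out (699 without mutant replicate 4, 14 without wild-type replicate 1). Without mutant replicate 4 every mutant library is of set 1, and without wild-type replicate 1 every wild-type library is of set 2. In these fits genotype is mixed more strongly with the set. Same-numbered deviations of replicates 1 to 4 correlated at 0.244, -0.027, -0.085 and 0.318 across genes. Mutant replicates 1, 2 and 3 each matched wild-type replicate 1 best, and mutant replicate 4 matched wild-type replicate 4. Each of these matches lies within 1 library set, so pairing by number cannot be told apart from the sets. The replicate block called 0 of the 9 members (Crh log2 fold change 1.25, edgeR adjusted p = 0.0518). Over all alternatives, 129 of 142 member values kept their direction and side of the threshold, 2 (Crh) passed it and 11 reversed. Adding the library set to the model gave log2 fold changes of 0.022 for Npy, -0.159 for Penk, -0.079 for Pdyn and -0.088 for Adcyap1. Penk also became -0.018 without mutant replicate 2, and -0.047 and -0.077 without wild-type replicates 2 and 3 (range over left-out libraries -0.077 to 0.184). Tac1 became 0.088 on log2(TPM + 1), 0.034 and 0.0077 without mutant replicates 3 and 4, and 0.029 without wild-type replicate 4 (range -0.098 to 0.034). The cause was not tested. Crh kept its sign in 15 alternatives (0.70 to 1.51, adjusted p 0.0143 to 0.560) and Nts in 16 (-0.32 to -0.20, adjusted p 0.0581 to 0.604). Crh and Vip fell under the stricter filter and have no value there. Depth limits Crh, with 19 reads in mutant replicate 4.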
